A study of Arabidopsis thaliana with 97 samples.

Results

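The calmodulin-like proteins described here are 10 Arabidopsis genes, CML37 (AT5G42380), CML38 (AT1G76650), CML39 (AT1G76640), CML40 (AT3G01830), CML41 (AT3G50770), CML42 (AT4G20780), CML43 (AT5G44460), CML45 (AT3G29000), CML46 (AT5G39670) and CML47 (AT3G47480). They were taken by locus from the 27878 sense loci of the time course, by their names, a rule that uses no measured value, although the family was chosen with earlier results of these data known. Transcript 3′ ends were counted by EXPRSS Tag-seq, in which oligo(dT)-primed, sheared cDNA gives short strand-specific tags near the polyadenylation site. Leaf discs of 5-week-old plants were floated on water overnight and then given fresh water for 8 min or 100 nM flg22, the flagellin peptide seen by the receptor FLS2, for 8, 15, 30, 45, 60, 120 or 180 min. The genotypes were wild type Col-0 and the mutants npr1-1, jar1-1 and ein2-5, with 3 biological replicates for each of the 32 combinations of genotype and condition. The npr1-1 allele affects the salicylic acid regulator NPR1, jar1-1 the jasmonate-conjugating enzyme JAR1 and ein2-5 the ethylene signalling protein EIN2, and each mutant was represented by 1 allele.

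Calmodulin and its relatives bind calcium through EF-hand motifs, change shape when cellular calcium rises, and then bind target proteins. In leaves a calcium influx is among the first events after flg22 is perceived. The CML proteins differ from calmodulin in sequence and mostly lack any known activity besides calcium and target binding, so that they are regarded as calcium sensors. CML37 and CML42 have been linked to wound and herbivore responses, with CML42 also affecting trichome branching. CML38 belongs to the genes induced by low oxygen, and CML41 is located at plasmodesmata. CML43 has been connected to the hypersensitive response, and CML46 and CML47 to the restraint of salicylic acid accumulation together with the calmodulin-binding protein CBP60A.

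All 10 genes had 1 uninterrupted coding segment of 441 to 618 bases in the RefSeq annotation of TAIR10.1, the assembly used here for coordinates. CML38 (chromosome 1, 28766750 to 28768138, minus strand) and CML39 (28765254 to 28765866, minus strand) were neighbours. Over aligned coding sequences the closest pairs were CML42 and CML43 with 76.6% identical bases, CML38 and CML39 with 73.5%, and CML45 and CML46 with 67.5%. Within the last 500 transcript bases no pair shared a run of 36 bases, and none of these 36-base windows was found elsewhere in the nuclear genome. The last 90 coding bases of the neighbouring pair are shown because the tags come from near the 3′ end. The 2 stretches (chr1:28766909-28766998 and chr1:28765324-28765413, both minus strand, TAIR10.1) were identical at 81 of 90 positions, and capitals mark the positions that differed.
CML38: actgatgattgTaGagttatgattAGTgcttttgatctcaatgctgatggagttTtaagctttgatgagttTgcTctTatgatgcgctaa
CML39: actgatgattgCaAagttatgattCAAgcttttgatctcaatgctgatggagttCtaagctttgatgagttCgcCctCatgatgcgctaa

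The 250 bases before the annotated start of 3 members are shown because 2 of them, CML40 and CML45, were called early in the time course given below and the third, CML47, late. Capitals mark TTGAC or its reverse complement GTCAA, the core of the W-box bound by WRKY transcription factors. The windows are chr3:295774-296023 (plus strand) for CML40, chr3:11005388-11005637 (plus strand) for CML45 and chr3:17497165-17497414 (minus strand) for CML47, in TAIR10.1.
CML40: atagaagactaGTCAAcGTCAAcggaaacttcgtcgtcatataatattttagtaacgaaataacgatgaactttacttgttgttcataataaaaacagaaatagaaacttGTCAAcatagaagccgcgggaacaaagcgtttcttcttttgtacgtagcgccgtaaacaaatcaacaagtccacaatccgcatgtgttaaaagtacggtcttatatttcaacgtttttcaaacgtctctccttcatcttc
CML45: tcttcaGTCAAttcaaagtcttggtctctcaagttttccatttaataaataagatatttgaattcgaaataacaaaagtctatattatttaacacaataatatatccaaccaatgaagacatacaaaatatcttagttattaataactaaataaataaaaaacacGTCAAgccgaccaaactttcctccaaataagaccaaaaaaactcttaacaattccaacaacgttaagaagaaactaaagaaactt
CML47: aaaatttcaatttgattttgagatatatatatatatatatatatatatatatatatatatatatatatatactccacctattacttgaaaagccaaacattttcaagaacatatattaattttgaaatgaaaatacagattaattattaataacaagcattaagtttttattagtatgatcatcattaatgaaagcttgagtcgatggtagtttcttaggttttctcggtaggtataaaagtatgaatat
The core occurred 3 times before CML40, 2 times before CML42 and CML45, and 1 time before CML38 and CML46, on either strand and without overlap. It did not occur in the windows of CML37, CML39, CML41, CML43 and CML47, so that 5 of 10 members held it. Of 27443 windows of the same length before protein-coding genes 44.9% held the core, and 14.1% held it 2 or more times. The letters CGCGT, the G-box CACGTG and the GCC box GCCGCC occurred in none of the 10 windows and in 6.87%, 6.49% and 1.87% of all windows. CGCGT is a form of the motif of calmodulin-binding transcription activators, and other forms of that motif were not searched for. A match in these letters is a description of the sequence and not a measured binding site.

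The 96 libraries held 388691 to 2415393 tags with a median of 1376885. Levels are given as tags in 1000000 tags of the library after TMM scaling (TPM), and a gene was called changed when edgeR's quasi-likelihood test gave a Benjamini-Hochberg adjusted p under 0.01 over the 16816 sense and antisense features that passed the filter on low counts. Of the 10 members 8 passed that filter. CML39 had 15 tags in 12 libraries and CML43 had 85 tags in 42 libraries, and neither was tested. All 5 mesophyll markers had tags in every library. Of the epidermis markers PDF1 had tags in 2.08% of the libraries, but ATML1, PDF2 and FDH in 94.8%, 94.8% and 100%. Of the root markers the root hair gene EXPA7 had tags in 3.13%, SHR in 45.8%, PYK10 in 63.5% and SCR in 92.7%. In Col-0 the summed levels of the mesophyll markers had a median of 12650 TPM in water and 8994 TPM in flg22, and the summed guard cell markers 32.4 and 12.4 TPM; the part of these shifts in the results below was not tested, and in bulk tissue fewer cells of a type cannot be told apart from less RNA per cell. EIN2 had a median of 12.2 TPM over the Col-0 libraries and 3.57 TPM in ein2-5, with overlapping ranges, whereas NPR1 had 53.3 and 49.8 TPM and JAR1 27.3 and 31.5 TPM in Col-0 and the respective mutant. A 3′ tag outside the mutated bases is still counted, so that these levels check no label. Water was sampled at 8 min alone, so that time in the fresh dish and flg22 changed together. Each genotype and replicate number had a sequencing lane of its own, so that lanes are nested within genotypes. By the study's account the libraries of jar1-1 and of ein2-5 came from sequencing runs other than that of the wild type, and for these 2 mutants genotype and run cannot be told apart.

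In Col-0 7 of the 8 tested members were called higher after flg22 at 1 or more times. CML37, CML38, CML40, CML45 and CML46 were called higher at 8 min, CML42 joined them at 30 min, and CML47 was called at 120 min and 180 min. By 180 min the levels of CML37 and CML38 overlapped the water libraries, and CML40, CML42 and CML47 were still called higher. CML41, the plasmodesmatal member, was not called at any of the 7 times.

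**Figure D1:**
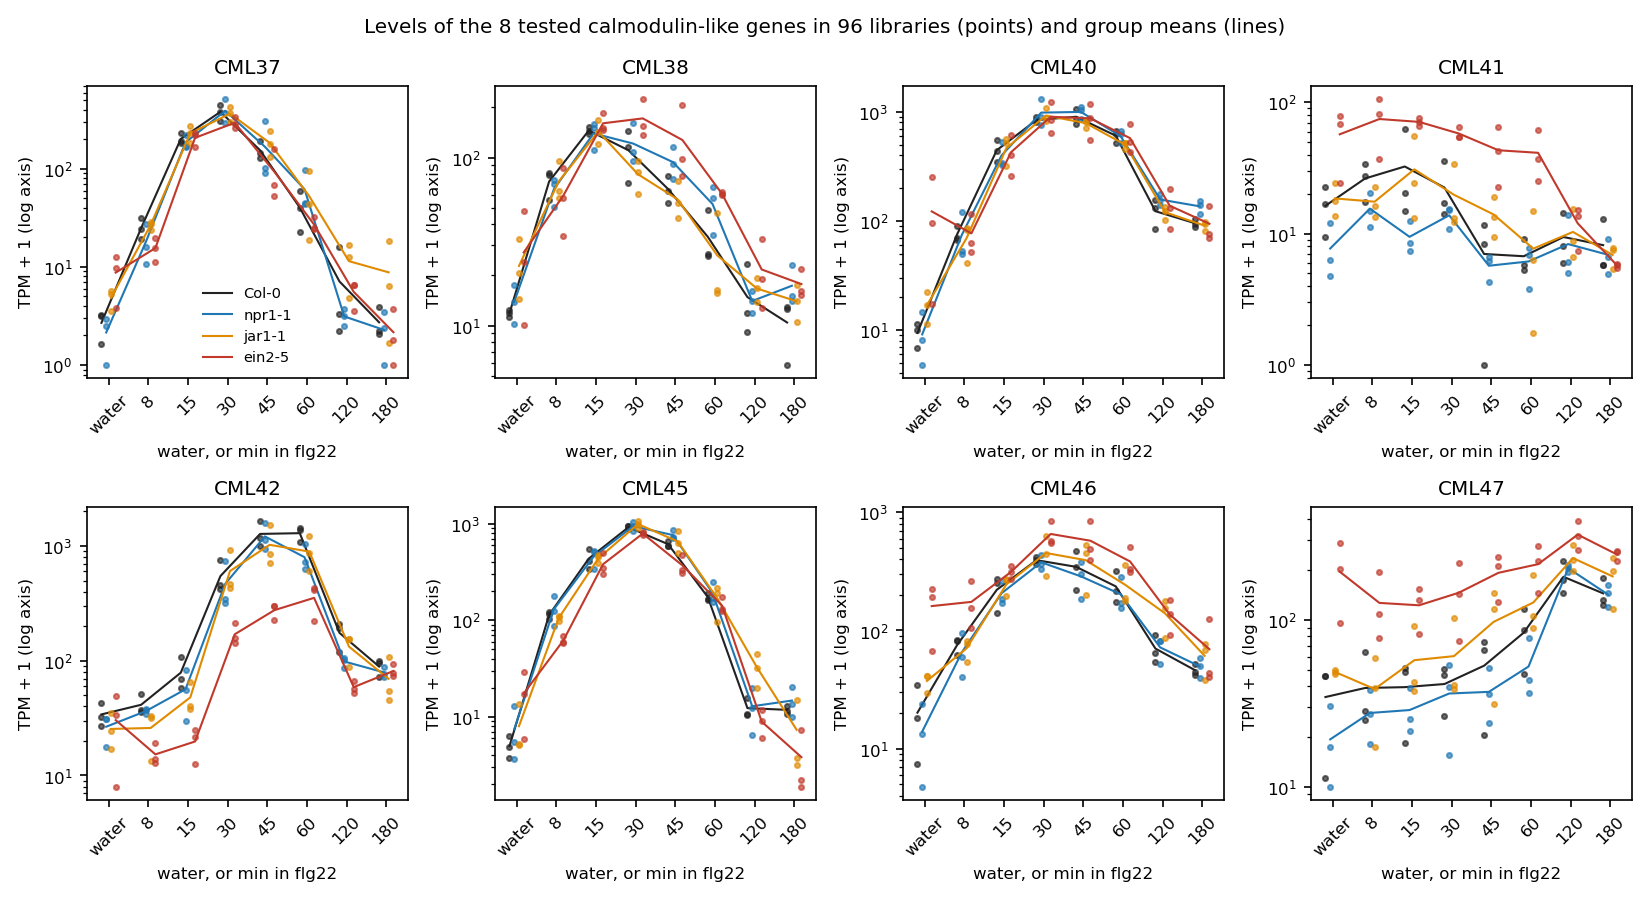
Level of each tested member in every library, as TPM + 1 on a log axis (vertical), in water and at 7 times in flg22 (horizontal, categories). Points are libraries, lines join the means of 3 replicates, and colours mark genotypes; most members rise to a maximum at 15 to 60 min and fall again, CML47 rises to 120 min, and ein2-5 has the highest mean in water for each member but CML42.

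CML45 had the largest log2 change of the 8 members at 8 and 30 min. In water it stood at 2.71, 3.86 and 5.27 TPM in the Col-0 replicates, and 8 min of flg22 gave 120, 115 and 102 TPM. At 30 min the replicates reached 871, 943 and 938 TPM, a ratio of group means of 232 and a log2 change of 7.86 ± 0.51 (SE, n = 3 per group, adjusted p = 6.5e-22). No library at 8 to 60 min overlapped the water libraries. At 180 min the mean was 10.8 ± 1.17 TPM (SD, n = 3), which was 1.18% of the peak, against 3.95 ± 1.28 TPM in water.

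CML37 also peaked at 30 min. Its Col-0 water libraries held 2.17, 0.644 and 2.26 TPM, and the 8 min libraries 18.2, 23.2 and 30.3 TPM. The 30 min libraries held 452, 309 and 382 TPM, a log2 change of 7.74 ± 0.67 (adjusted p = 2.6e-16). The level then declined to 57.9, 21.5 and 38.8 TPM at 60 min and 2.89, 1.08 and 1.21 TPM at 180 min. The last group overlapped water, with a log2 change of 0.07 ± 1.08.

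CML38 had its highest mean at 15 min, earlier than the other 6 members that were called higher. It moved from 10.9, 10.3 and 11.3 TPM in water to 80.1, 78.2 and 54.7 TPM at 8 min and 152, 143 and 137 TPM at 15 min. The log2 change was 2.71 ± 0.41 at 8 min and 3.72 ± 0.41 at 15 min (adjusted p = 2.0e-06 and 1.8e-11), and at both times all 3 libraries lay above water. CML38 had non-whole counts in 78 of the 96 libraries. In the study's counting, tags that matched up to 10 genes were divided equally among them. Counts such as 31.1429 come from tags divided among more genes than a single pair. The other loci were not identified here, so that the level of CML38 is uncertain by that share. CML39 had whole counts in every library.

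CML40 was called from 8 min and was still called at 180 min. Its Col-0 replicates held 10.3, 5.79 and 9.04 TPM in water, 348, 549 and 434 TPM at 15 min and 778, 859 and 1060 TPM at 45 min. The change at 45 min was 6.72 ± 0.52 on the log2 scale (adjusted p = 2.3e-18). At 180 min the libraries were at 87.7, 92.0 and 102 TPM, still above every water library and called higher with a log2 change of 3.47 ± 0.48 (adjusted p = 8.1e-09). The gene overlapped AT3G01055 and AT3G01840 on the other strand, as CML46 did AT5G05995 and AT5G39680.

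CML46, one of the pair linked to salicylic acid, held 33.6, 6.44 and 17.3 TPM in water. It reached 395, 362 and 422 TPM at 30 min, a log2 change of 4.33 ± 0.49 (adjusted p = 8.9e-12), and the lane as a block added a call at 180 min (1.23, adjusted p = 0.0091). Its partner in that role, CML47, was called at 120 and 180 min, and with the lane as a block at 60 min too (adjusted p = 0.00051 in edgeR). CML47 was at 45.0, 10.3 and 45.2 TPM in water and at 45.6, 25.5 and 49.8 TPM at 30 min, where the groups overlapped. It rose to 173, 144 and 225 TPM at 120 min and 121, 131 and 177 TPM at 180 min, with log2 changes of 2.42 ± 0.51 and 2.09 ± 0.51 (adjusted p = 5.7e-05 and 0.00046).

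CML42 was first called at 30 min and had its highest means at 45 and 60 min. Its water libraries held 41.8, 25.8 and 31.6 TPM and its 8 min libraries 50.1, 34.8 and 36.1 TPM, which overlapped. The level was 422, 761 and 455 TPM at 30 min, 1169, 993 and 1657 TPM at 45 min and 1091, 1422 and 1364 TPM at 60 min. The log2 change was 5.28 ± 0.45 at 60 min (adjusted p = 1.7e-16) and 1.40 ± 0.40 at 180 min (adjusted p = 0.0030). CML41 held 15.7, 8.37 and 21.8 TPM in water and 4.83, 4.30 and 8.08 TPM at 60 min, with a log2 change of -1.39 ± 0.62 that missed the threshold (adjusted p = 0.057).

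Counted over the 8 tested members, 5 were called higher in Col-0 at 8 min, when 1.20% of all tested features were, and 5 at 15 min (8.71% of all features). For 30, 45, 60, 120 and 180 min the counts were 6, 6, 6, 4 and 3. The shares of all features called higher were 11.1%, 15.0%, 16.9%, 17.0% and 16.1%. No member was called lower at any of the 7 times, but the share of all features called lower is not given here. The median log2 change of the 8 members was 2.32 at 8 min and 4.70 at 45 min, against -0.07 and -0.29 over all features. At 8 min CML37 and CML46 were not called without replicate 2, which left 3 members, and CML46 was not called without replicate 3. Of the later calls, that of CML38 at 60 min was lost without replicate 1, that of CML46 at 120 min without replicate 2 or replicate 3, and that of CML42 at 180 min without replicate 2. Scaling by total tags in place of TMM moved the median of all features in the flg22 comparisons by -0.45 to 0.21 on the log2 scale, a shift smaller than each called change of a member in Col-0.

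**Figure D2:**
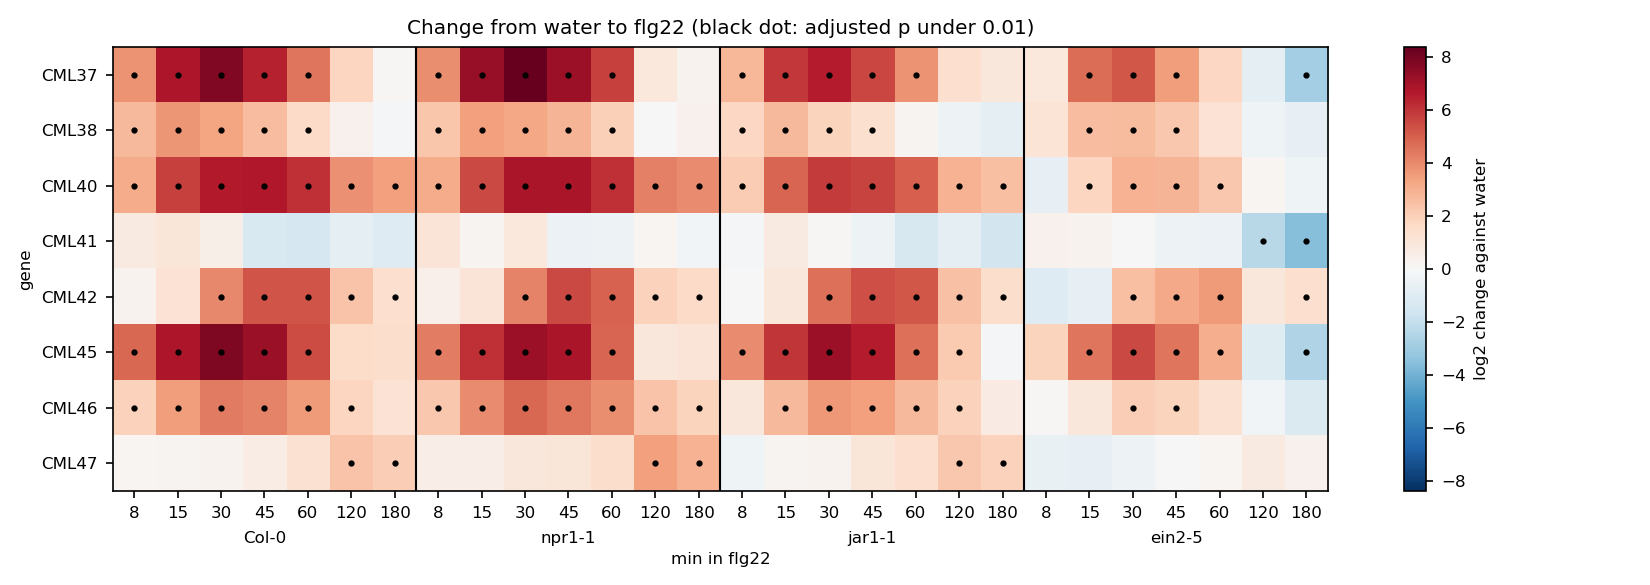
Log2 change from water to flg22 (colour scale) of the 8 tested members (vertical) at 7 times in each of 4 genotypes (horizontal). Black dots mark an adjusted p under 0.01; most dots of the early members lie between 8 and 60 min, and ein2-5 has none at 8 min and falls of CML37, CML41 and CML45 at 180 min.

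The time of the highest level was also read in each lane, that is in each replicate of each genotype. CML38 was highest at 15 min in 9 of 12 lanes, CML37 at 30 min in 12, CML45 at 30 min in 11 and CML46 at 30 min in 9. CML40 peaked at 30 min in 7 lanes and at 45 min in 5, CML42 at 45 min in 6 and at 60 min in 5, and CML47 at 120 min in 11. Of the peak in Col-0, 0.453% was left at 180 min for CML37, 6.56% for CML38, 10.5% for CML40, 6.81% for CML42 and 11.5% for CML46, but 79.5% for CML47.

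**Figure D3:**
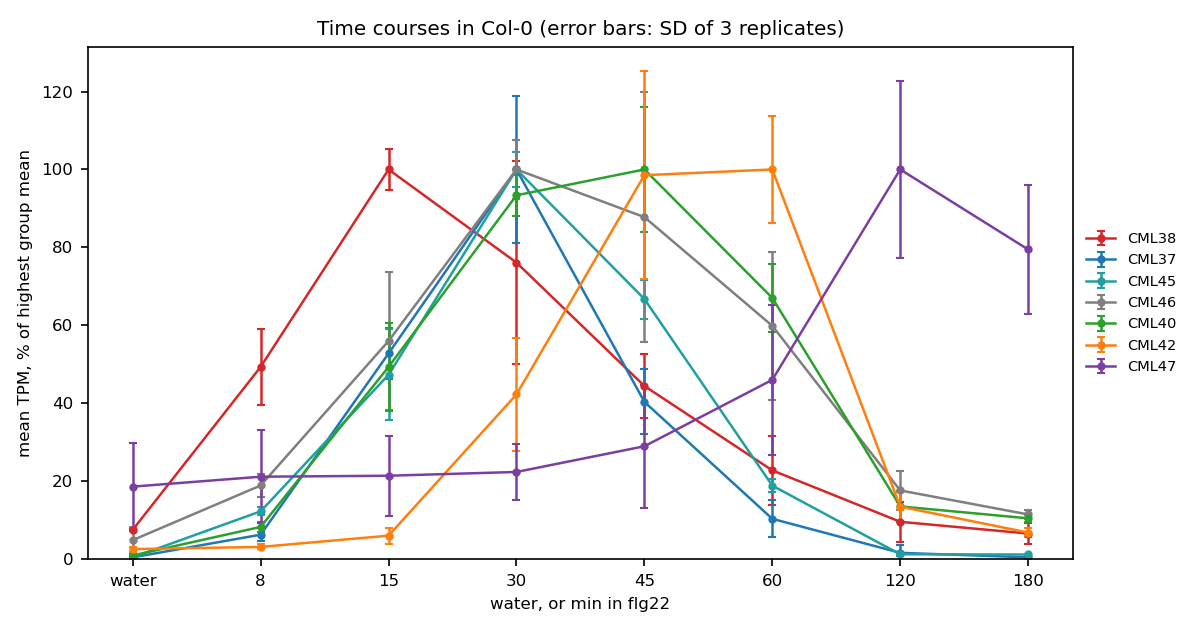
Mean level of the 7 members called higher in Col-0, as a percentage of each gene's highest group mean (vertical), in water and at 7 times in flg22 (horizontal, categories); error bars are the SD of 3 replicates. CML38 peaks at 15 min, CML37, CML45 and CML46 at 30 min, CML40 at 45 min, CML42 at 60 min and CML47 at 120 min.

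Consecutive times were also compared in Col-0. From 8 to 15 min CML37 rose by 3.07 ± 0.50, CML40 by 2.58 ± 0.42 and CML45 by 1.95 ± 0.37 on the log2 scale, so that 3 members were called (3.91% of all features rose), and a fit with the lane as a block added CML38 and CML46 to make 5. From 15 to 30 min CML42 was called, with a rise of 2.81 ± 0.40 (4.21% of all features), and the block added CML40 and CML45 to make 3. From 30 to 45 min the block called a fall of CML37 (log2 change -1.29, adjusted p = 0.0058) and a rise of CML42 (1.24, adjusted p = 0.0074), which without the block had adjusted p of 0.073 and 0.040. From 45 to 60 min CML45 fell by 1.82 ± 0.36 (0.392% of all features), with CML37 added under the block to make 2; the call was lost without replicate 1, without replicate 2 and without replicate 3. From 60 to 120 min 5 members fell (4.47% of all features), namely CML37, CML40, CML42, CML45 and CML46, by 1.76 to 3.93 on the log2 scale. The block added a rise of CML47 (1.19, adjusted p = 0.0038) over that step. Without replicate 1 the count of falls was 2, without replicate 2 it was 3, and without replicate 3 it was 4.

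The 2 members that were not tested are described by their tags. CML43, the closest relative of CML42, had 4 tags in all water libraries together and 81 in the flg22 libraries. Of these 81 tags 9 came from 8 to 30 min and 72 from 45 to 180 min. The flg22 libraries covered 7 times and water 1, so that such totals, here and for CML39, do not compare levels. All 4 water tags of CML43 came from ein2-5, among 5.37e+06 tags, against 16 among 2.92e+07 in its flg22 libraries. In Col-0 no tag was found among 4440961 in water, which allows up to 0.676 TPM for a count of 3. Over the flg22 times Col-0 had 27 tags among 2.38e+07. Unscaled levels over the 3 Col-0 libraries at 45, 60 and 120 min were 2.41, 1.95 and 2.23 tags in 1000000, from 8, 8 and 6 tags. CML39 had 4 tags in water and 11 in flg22, and ein2-5 gave 3 of the former and 7 of the latter. Changes of CML39 were not detectable at this depth.

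In npr1-1 and jar1-1 flg22 was likewise followed by rises, against each genotype's own water libraries. In npr1-1 CML37, CML38, CML40, CML45 and CML46 were called higher at 8 and 15 min, CML42 in addition at 30, 45 and 60 min, and CML40, CML42, CML46 and CML47 at 120 and 180 min. The counts of 5, 5, 6, 6, 6, 4 and 4 over the 7 times stood beside 1.18%, 8.59%, 12.0%, 15.3%, 17.1%, 16.7% and 17.3% of all features. In jar1-1 the counts over the 7 times were 4, 5, 6, 6, 5, 5 and 3, beside 0.868%, 9.41%, 12.1%, 16.4%, 17.7%, 18.0% and 18.2% of all features. There CML46 was not called at 8 min nor CML38 at 60 min, and CML45 was still called at 120 min. CML45 at 30 min, for instance, held 954, 835 and 1039 TPM in npr1-1 and 995, 1071 and 903 TPM in jar1-1. The early counts depended on single replicates: at 8 min npr1-1 had 2 calls without replicate 3, and jar1-1 had 1 without replicate 2 or replicate 3. At 180 min npr1-1 had 2 calls without replicate 2, and jar1-1 had 1 without replicate 1.

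No difference between npr1-1 or jar1-1 and Col-0 was called for a member. In water 0 of 8 members were called by edgeR in npr1-1 (0.0595% of all features), with 0 at an unadjusted p under 0.05, and 0 in jar1-1 (0.0357%), with 1 at an unadjusted p under 0.05. The median log2 difference of the 8 members in water was -0.44 in npr1-1 and 0.83 in jar1-1, against 0.02 and 0.04 over all features. With 3 replicates per group, a missing call does not show that levels were equal. In a test over the 7 flg22 times 0 were called in npr1-1 (0.571%) and 0 in jar1-1 (1.02%), with 1 and 0 at an unadjusted p under 0.05. In the interaction test, which asks if a mutant and Col-0 changed unequally after flg22, 0 members and 0% of all features were called in npr1-1, and 0 members and 0% in jar1-1, with 0 and 0 at an unadjusted p under 0.05. DESeq2, run for the water comparisons, and limma-voom with the lane as a random block, run for all of them, also called 0. CML45 in water, as an example of the spread, was at 12.1, 4.52 and 2.64 TPM in npr1-1 and 12.6, 4.27 and 4.07 TPM in jar1-1, which overlapped Col-0.

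In ein2-5 5 of the 8 tested members were higher in water. CML40, CML41, CML45, CML46 and CML47 were called higher than in Col-0, when 5.14% of all features were, and CML37 and CML38 missed the threshold (adjusted p = 0.055 and 0.033). CML46 held 190, 66.7 and 224 TPM in the 3 ein2-5 water libraries, 3.04 ± 0.47 above Col-0 on the log2 scale (adjusted p = 1.1e-06). CML47 held 200, 94.7 and 286 TPM, 2.53 ± 0.51 above Col-0 (adjusted p = 0.00018). For both genes every ein2-5 library exceeded every Col-0 library.

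CML40 held 94.9, 16.1 and 252 TPM in ein2-5 water, 3.84 ± 0.48 above Col-0 (adjusted p = 5.3e-09), again with no overlap. CML41 held 77.4, 23.1 and 67.9 TPM, 1.88 ± 0.50 above Col-0 (adjusted p = 0.0064). CML45 held 16.2, 4.91 and 28.1 TPM, 2.08 ± 0.49 above Col-0 (adjusted p = 0.0015), and its replicate 2 overlapped the Col-0 range. Replicate 2 was the lowest ein2-5 library for all 5 genes. The highest CML40 library in ein2-5 water, with 252 TPM, exceeded each Col-0 library at 8 min of flg22, the highest of which held 87.9 TPM. CML42, by contrast, had 32.5, 7.01 and 48.6 TPM and overlapped Col-0 (log2 difference -0.16 ± 0.41, adjusted p = 0.88).

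In limma-voom with the lane as a random block the call of CML45 in water was lost (adjusted p = 0.028), and with total-tag scaling that of CML41 was lost (0.030). The 5 calls in water were 3 without replicate 1 (CML41 and CML45 lost), 5 without replicate 2, and 2 without replicate 3 (CML41, CML45 and CML47 lost). With only the Col-0 and ein2-5 water libraries in the fit, 0 members were called, with adjusted p of 0.015 to 0.079 for the 5 genes. The summed level of the 8 members was 669, 225 and 938 TPM in the ein2-5 water libraries and 162, 71.5 and 144 TPM in Col-0. The plastid-encoded share of tags was 44.2%, 25.9% and 12.9% in the same ein2-5 libraries and 11.1%, 27.7% and 35.5% in Col-0. The summed levels of 4 root markers had a median of 21.5 TPM in ein2-5 water and 9.04 TPM in Col-0, with ranges that did not overlap, and edgeR called 1 of 2 tested root markers higher. It called 0 of 5 mesophyll, 0 of 3 guard cell, 0 of 3 epidermis and 0 of 3 phloem companion cell markers, and in each of these 4 lists 0 had an unadjusted p under 0.05. The part of these differences in the result was not tested.

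**Figure D4:**
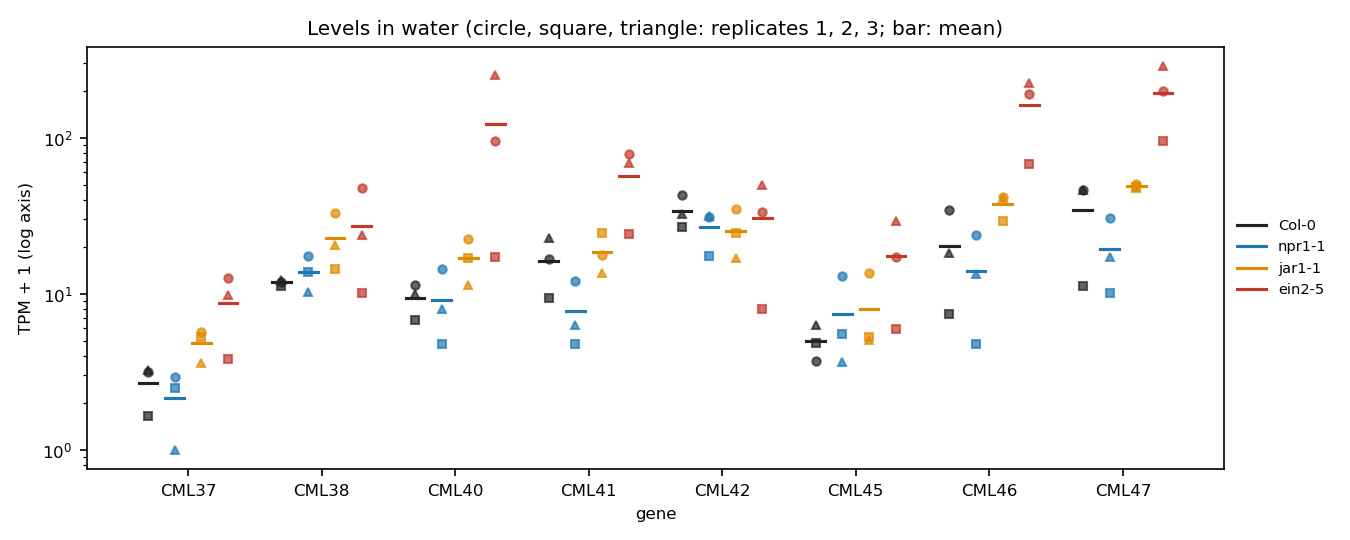
Level of each tested member in the 12 water libraries, as TPM + 1 on a log axis (vertical), by gene (horizontal) and genotype (colour). Circles, squares and triangles are replicates 1, 2 and 3 and bars are means; in ein2-5 CML40, CML46 and CML47 lie above the other genotypes in every replicate but 1 of CML40, and replicate 2 is the lowest ein2-5 point for each gene.

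Changes from water to flg22 in ein2-5 were measured against these higher water levels. At 8 min edgeR called 0 of 8 members higher (0.0535% of all features), with 3 at an unadjusted p under 0.05 in either direction. Both DESeq2 and edgeR with the lane as a block called 1. CML45 was the member called with the block. It went from 16.2, 4.91 and 28.1 TPM to 58.2, 67.6 and 56.6 TPM without overlap (log2 change 1.86 ± 0.40, adjusted p = 0.019, and 0.0018 with the block). For 15, 30 and 45 min the counts of members called higher were 4, 6 and 6, beside 3.37%, 7.52% and 10.1% of all features. At 60 min 3 were called (11.1% of all features), and CML37, CML38 and CML46 missed the threshold with adjusted p of 0.010, 0.010 and 0.014. The block called 6 there, and the fit without replicate 1 called 5. At 120 min edgeR called 0 higher (8.17% of all features), and DESeq2 called 0 higher. In edgeR 3 members had an unadjusted p under 0.05 in either direction, among them CML41, which was called lower. CML42 was the 1 member called at 180 min (6.29% of all features), and it was not called without replicate 1 or without replicate 2.

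Levels of members below water were called in ein2-5 and in none of the other 3 genotypes, for which the share of all features called lower is not given here. At 120 min CML41 was the 1 of 8 members called lower, a count near the share over all features (13.1%). CML37, CML41 and CML45 were called lower at 180 min (3 of 8 members, 11.1% of all features). CML41 held 6.39, 12.6 and 14 TPM at 120 min and 4.76, 4.47 and 4.84 TPM at 180 min, against 77.4, 23.1 and 67.9 TPM in water. Its log2 changes were -2.33 ± 0.53 and -3.55 ± 0.59 (adjusted p = 0.00038 and 3.3e-06), and neither group overlapped water. CML45 at 180 min held 6.35, 0.895 and 1.21 TPM and overlapped the water range. CML37 held 0.794, 2.69 and 0 TPM at 180 min against 11.7, 2.81 and 8.78 TPM in water, 4 tags against 37 over the libraries. Its call (adjusted p = 0.0097) was kept in 3 of 10 alternatives, being lost with total-tag scaling, a minimum count of 30, no organelle loci, the compared groups alone, and without each replicate in turn. The call at 120 min was lost without replicate 1 and without replicate 3, and at 180 min 1 call was left without replicate 3, where CML37 and CML45 were lost. The call of CML45 was also lost with the compared groups alone. The interaction test below did not call CML37 or CML41.

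The levels reached in flg22 differed from Col-0 for few members. CML42 was lower in ein2-5, being called from 15 to 120 min. The log2 differences at 15, 30, 45, 60 and 120 min were -2.08 ± 0.43, -1.69 ± 0.38, -2.21 ± 0.39, -1.88 ± 0.38 and -1.58 ± 0.39, and 1.13%, 0.785%, 0.779%, 1.11% and 1.72% of all features were called lower. At 45 min the ein2-5 libraries held 299, 228 and 298 TPM, all below the lowest Col-0 library of 993 TPM. At 60 min they held 425, 410 and 221 TPM against a lowest Col-0 value of 1091 TPM. At 180 min 72.2, 92.2 and 76.8 TPM overlapped Col-0. Leaving out 1 replicate kept the call at 45 min in each case but ended it without replicate 2 at 15 min, without replicates 1 or 2 at 30 min, without replicates 1 or 3 at 60 min, and in all 3 cases at 120 min.

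CML41 was higher in ein2-5 at 45 min (2.76 ± 0.61, 1.21% of all features called higher) and 60 min (2.79 ± 0.59, 1.61%). It held 41.5, 21.6 and 63.5 TPM at 45 min against 0, 10.7 and 7.35 TPM in Col-0, and 61.1, 24.0 and 35.8 TPM at 60 min, without overlap at either time. The call at 45 min was lost without replicate 1 and without replicate 3, and that at 60 min without replicate 1. CML47 lay above Col-0 in every replicate at all 7 times, by 0.78 to 1.88 on the log2 scale, but was not called at any of them, whereas a fit with the replicate number as a block called it at 8, 30 and 45 min. Taken over the 7 times, 3 of 8 members differed in ein2-5 (16.5% of all features did): CML41 (adjusted p = 5.2e-07), CML42 (6.6e-12) and CML47 (1.1e-06), of which CML41 was lost and CML45 gained without replicate 1. The block added CML38 and CML46 to make 5, but limma-voom with the lane as a random block gave them adjusted p of 0.10 and 0.24. In that limma-voom fit CML41, CML42 and CML47 had adjusted p of 0.00018, 1.5e-07 and 0.00011. CML40, which differed in water, had log2 differences of -0.07 to 0.17 at the 7 flg22 times, and held for example 836, 640 and 1223 TPM in ein2-5 and 890, 797 and 832 TPM in Col-0 at 30 min.

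In the interaction test ein2-5 and Col-0 changed unequally after flg22 for 2 of 8 members, against 1.34% of all features. These were CML40 (adjusted p = 7.0e-05) and CML45 (adjusted p = 0.0074). Both rose in both genotypes. For CML40 the log2 change at 30 min was 6.62 ± 0.52 in Col-0 and 2.89 ± 0.42 in ein2-5, while the level at that time differed by 0.10 ± 0.39. With the lane as a block 4 members were called, CML42 and CML46 being added. In limma-voom with the lane as a random block CML46 was called (adjusted p = 0.0039), CML42 was not (0.026) and the call of CML45 was lost (0.010). Without replicate 1 and without replicate 3 the count was 0, and without replicate 2 it was 1, CML40.

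Antisense tags were those on the strand opposite to a gene that did not lie within 500 bases of the 3′ end of another gene on their own strand. They were found for 9 members and were tested for 5. Over all libraries they came to 6.78% of the sense tags for CML37, 3.54% for CML38, 3.45% for CML42, 3.99% for CML45 and 0.837% for CML46, but 1 tag or 0.00204% for CML40. CML40 and CML46 overlapped genes on the other strand, and by this rule tags near the 3′ ends of those genes were not counted as antisense. The part of the rule in their low percentages was not tested. Antisense tags of CML45 were at 0 in the 3 Col-0 water libraries and stood at 57.9, 37.9 and 43.5 TPM at 30 min. Those of CML42 stood at 1.63, 1.29 and 5.27 TPM in water and at 46.3, 40.0 and 35.5 TPM at 45 min, a log2 change of 3.93 ± 0.51 (adjusted p = 8.8e-10). In ein2-5 the CML42 antisense level was lower than in Col-0 at 45 min (-2.11 ± 0.44) and 60 min (-1.93 ± 0.44), the same direction as for the sense tags. Whether these tags come from separate transcripts was not tested.

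**Figure D5:**
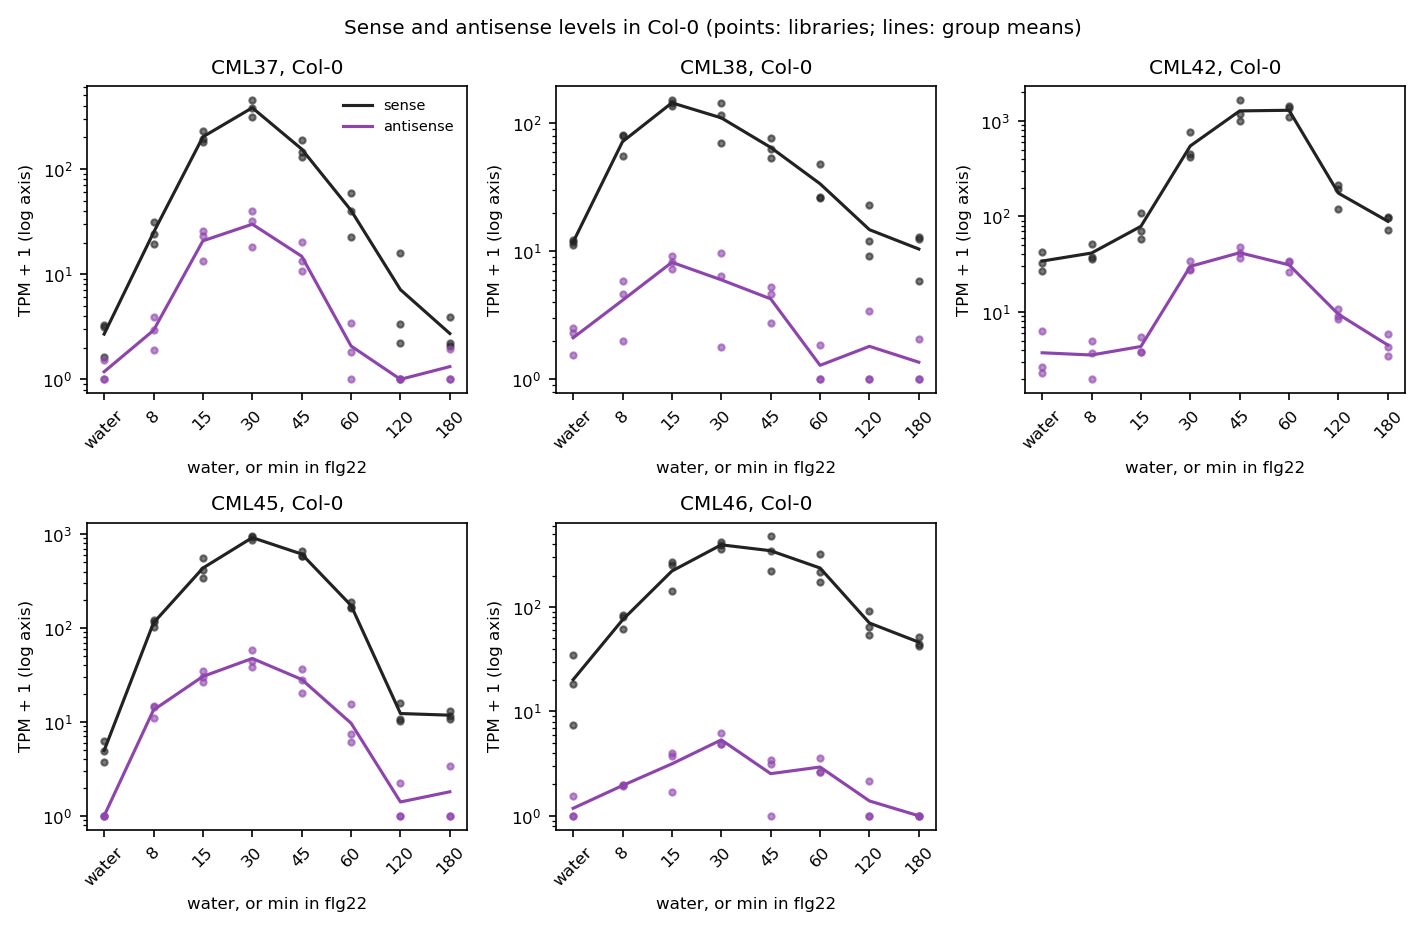
Sense (black) and antisense (purple) levels in Col-0 of the 5 members with tested antisense tags, as TPM + 1 on a log axis (vertical), in water and at 7 times in flg22 (horizontal, categories). Points are libraries and lines join means of 3 replicates; antisense levels rise and fall at about the times of the sense levels, at 0.837% to 6.78% of the sense tags over all libraries.

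Likeness among the members was measured as the Pearson correlation of log2(TPM + 1) group means over the 32 groups. These means share 12 lanes and the flg22 time course, and the coefficients are descriptions. The highest coefficient was that of CML37 and CML45 with r = 0.968, followed by CML40 and CML46 with 0.934, and CML38 with CML37 and CML45 with 0.895 each. CML47 correlated with the other members at -0.361 to 0.154, and CML41 with CML42 at -0.384. CML45 and CML46, the third closest pair by coding sequence, had r = 0.842.

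Over the 14561 other sense genes that passed the filter, the nearest gene by the same measure was the CCCH zinc finger gene CZF1 for CML37 (r = 0.983) and the mitochondrial dicarboxylate carrier gene UCP5 for CML40 (0.987). For CML42 it was the GDSL lipase gene GLIP4 (0.967), for CML41 the transcription factor gene MYB95 (0.843) and for CML47 the cell wall invertase gene ATBFRUCT1 (0.945). For CML38, CML45 and CML46 it was AT2G38790 (0.963), AT1G07135 (0.985) and AT2G04495 (0.977).

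Other genes of calcium sensing were counted from lists of 7 calmodulin genes, 40 other CML genes and 14 calmodulin-binding regulators. At 60 min in Col-0, when 16.9% of all features were called higher, 4 of 7 tested calmodulin genes were higher and none lower. Of 25 tested other CML genes 10 were higher and 1 lower. The share of all features called lower is not given here. CAM2, CAM3 and CAM5, which encode the same calmodulin protein, changed by 3.96 ± 0.32, 2.23 ± 0.25 and 1.13 ± 0.24 on the log2 scale. Among the other CML genes CML9 rose by 4.56 ± 0.41, from 46.2 ± 23.9 to 1092 ± 69.8 TPM (SD, n = 3), CML44 by 3.62 ± 0.52 and CML12, known as the touch-induced TCH3, by 3.33 ± 0.34. The median log2 change was 0.77 for the calmodulins, 0.64 for the other CML genes and -0.23 for all features, against 4.03 for the 8 members. At 8 min 0 of 7 calmodulin genes were called by edgeR, with 0 at an unadjusted p under 0.05. At that time 3 of 25 other CML genes were called higher, beside 1.20% of all features.

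Of 12 tested calmodulin-binding regulators 4 were higher and 1 lower at 60 min in Col-0, when 16.9% of all features were higher. CBP60G and SARD1, which activate salicylic acid synthesis genes, changed by 4.70 ± 0.48 and 1.53 ± 0.42, CBP60A by 2.69 ± 0.25, and CBP60C fell by 1.42 ± 0.29. The SARD1 libraries ranged from 12.0 to 74.0 TPM at 60 min and from 10.3 to 13.6 TPM in water, which overlapped. In ein2-5 water 1 of 7 tested calmodulin genes, 5 of 25 other CML genes and 3 of 12 regulators were higher than in Col-0, beside 5.14% of all features. None of the 3 lists had a gene called lower there. For both comparisons in this paragraph the share of all features called lower is not given here. CML44 and CBP60G were higher there by 3.55 ± 0.51 and 3.79 ± 0.47 on the log2 scale.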

How the data were processed

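Tags of 96 libraries were used. Per the labels and the study's methods, the authors filtered reads with the FASTX Toolkit, aligned them to TAIR10 with Bowtie 0.12.8, processed them in R 2.15.3, and divided tags that matched up to 10 genes equally among them. The deposited values are therefore estimated counts per locus, not scaled to depth, and 12.0% to 18.4% of the values in a library were not whole. A locus that a library did not list was taken as 0, and values were rounded to whole counts.

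Sense and antisense loci were fitted together with edgeR 4.0.16 (R 4.3.3) by quasi-likelihood, after filterByExpr by group (minimum count 10, minimum total 15) and TMM scaling, with 32 group terms. The tests were two-sided, p-values were adjusted by Benjamini-Hochberg over the 16816 features of each comparison, and an adjusted p under 0.01 was called. The SE of a log2 change was its size divided by the square root of F. Comparisons of flg22 times with one genotype's water libraries share those libraries. All 10 members are named. The 10 members and the gene lists were chosen with earlier results of these data known. Of each list, up to 3 genes with the largest rise and 3 with the largest fall at 60 min in Col-0 are named, with a mean of at least 10 TPM. The procedure was tested on simulated data. Tag numbers and the limit given for a count of 0 cover counting error only.

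A deposited list shows that the 8 libraries of each genotype and replicate number shared 1 lane. Deviations from group means over 5000 loci correlated within a lane with a mean r of 0.339 (Col-0), 0.600 (ein2-5), 0.334 (jar1-1) or 0.400 (npr1-1), and across genotypes with the same number at 0.133. Alternatives were DESeq2 1.42.0, limma 3.58.1 with voom and the lane as a random block, the replicate block (lane within a genotype, replicate number between genotypes), total-tag scaling, no filter, a minimum count of 30, leaving out organelle loci or each replicate number, and fitting the compared groups alone. The sample of unassigned reads was not analysed here. The study's own test, baySeq, was not used here. Sequences, coordinates and the motif search used RefSeq TAIR10.1 with Biopython 1.88.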

Additional observations from a re-analysis of the deposited data

Results flagged for a closer look

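The responses of CML40 and CML45 to flg22 differed between ein2-5 and Col-0 in the interaction test over the 7 times, with adjusted p of 6.97e-05 for CML40 and 0.007359 for CML45 by edgeR. Both genes stood higher in ein2-5 water. Over 10 alternatives the adjusted p ranged from 9.2e-14 to 0.078 for CML40, which was called in 8, and from 5.4e-05 to 0.73 for CML45, which was called in 5.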

How the results depend on the processing

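No call of a member changed direction under any alternative run. Of 156 calls of single members, 156 held with the replicate block, 156 without the filter, 155 with a minimum count of 30, 155 without organelle loci, 152 with total-tag scaling, 133 with only the compared groups, and 132, 131 and 134 without replicates 1, 2 and 3; DESeq2 held 151 of 151 and limma-voom 15 of 17. The replicate block added 9 calls of flg22 against water, 27 of consecutive times, 3 of mutants at a time, 2 over the times and 2 interactions, and it changed no other call.

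In ein2-5 at 8 min 1 member was higher with the block, without the filter, with DESeq2 and with total-tag scaling. At 60 min the count was 6 with the block, without the filter, with DESeq2, with a minimum count of 30 and without organelle loci, and 5 with total-tag scaling. With only the compared groups 2, 2 and 3 were higher at 15, 30 and 45 min and 0 at 180 min, 0 were lower at 120 min and 1 at 180 min, 0 were higher in water, and CML42 at 30 min and CML41 at 45 min gave 0 calls. Against Col-0 at 45 min 2 members were higher with the block, without the filter, with DESeq2 and with limma-voom, and at 60 min 2 without the filter. Over the times 5 members were called with the block, without the filter and with only the compared groups. The interaction called 4 with the block, 5 without the filter and 1 with total-tag scaling. For Col-0 steps, 8 to 15 min gave 5 with the block and with only the compared groups; 15 to 30 min gave 3 with the block and 2 with DESeq2 or only the compared groups; 45 to 60 min gave 2 with the block, without the filter, with DESeq2 and with only the compared groups. The cause of these changes was not tested.

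Leaving out 1 replicate gave 3 to 5 members higher at 8 min in Col-0, 2 to 5 in npr1-1 and 1 to 3 in jar1-1, and at 180 min 2 to 4 in npr1-1, 1 to 3 in jar1-1 and 0 to 1 in ein2-5. In ein2-5 it gave 3 to 5 higher at 60 min, 0 to 1 lower at 120 min, 1 to 3 lower at 180 min and 2 to 5 higher in water. The Col-0 steps gave 0 from 45 to 60 min and 2 to 4 from 60 to 120 min. CML42 gave 0 to 1 calls at 15, 30 and 60 min and 0 at 120 min, CML41 0 to 1 at 45 and 60 min, and the interaction 0 to 1. Of 32 peak levels 29 moved by less than 1 SD with total-tag scaling and 3 by more. Depth left CML39 and CML43 untested.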
